A study of Homo sapiens with 12 samples.

Results

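Regions of bromodeoxyuridine (BrdU) labelled DNA and of H3K18ac, a histone H3 tail acetylated at lysine 18, were examined at 10 transcription factor genes that direct the first choices of cell fate in the embryo: PAX6, OTX2, ZIC2, FOXA2, GATA4, GATA6, SOX17, T, EOMES and NKX2-5. The genes were chosen by their known role, but with earlier results of these data known. Every region of 6 deposited lists that touched a gene or lay within 20 kb of it was taken. This gave 40 of the 169273 regions in the lists. They were 26 of 65946 H3K18ac regions in H1 embryonic stem cells, 7 of 84471 H3K18ac regions in IMR90 primary lung fibroblasts, 1 of 5086 BrdU regions in H1 control cells, 2 of 1755 in H1 knockdown cells, 3 of 5743 in IMR90 and 1 of 6272 in Saos-2 osteosarcoma cells.

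The series relates DNA replication to an epigenetic mark and has 12 samples, of which 6 are inputs that were not analysed here. The H1 control cells received non-targeting siRNA and the H1 knockdown cells siRNAs against EP300 and CREBBP, which encode the related acetyltransferases p300 and CBP. Both siRNA cultures had 300000 cells per well, DharmaFECT 1, Matrigel-coated plates and 10 µM HA 1077 and were collected after 72 h. No siRNA was given to IMR90, to Saos-2 or to the H1 cells used for H3K18ac, so BrdU regions of H1 differ from the other lists in treatment as well. EP300 and CREBBP levels after the siRNAs were not analysed here. H1 was at passage 35 to 45 in mTESR1 and IMR90 at passage 7 to 12 in DMEM with serum, as was Saos-2, for which no passage is given. Each BrdU library came from 4 µg of DNA and each H3K18ac library from 5000000 cells. There was 1 library per group, so differences have no replicate check, no test between lists was possible, and no p-value is given. The depth of the libraries is unknown, and signal at a gene without a region may have missed the authors' unstated threshold narrowly. RNA was not measured, so the identity of the 3 cell lines could not be checked by marker expression.

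At gastrulation the epiblast gives rise to ectoderm, mesoderm and endoderm, and each layer is set up by transcription factors, most of which embryonic stem cells keep silent or express at low level until they differentiate. PAX6 is a paired-domain factor of neural ectoderm and eye, OTX2 a homeodomain factor of anterior neural tissue that is also active in primed pluripotent cells, and ZIC2 a zinc finger factor of the neural plate that is likewise expressed in embryonic stem cells. H3K18ac is deposited by p300 and CBP at active promoters and enhancers. BrdU, a thymidine analogue, is built into DNA while it is copied.

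The bases before the annotated starts are shown for 4 genes that stand for the patterns found. These are ZIC2, with H3K18ac around its start in H1, and GATA6, with H3K18ac just inside its start in IMR90. The others are OTX2, with a BrdU region of the knockdown just inside its start, and EOMES, with no region in any list. Each stretch is the 250 bases before the start from RefSeq (GRCh38.p14), on the strand of the gene, with CG in capitals. For OTX2 the first of 2 listed starts is shown, and whether it is the one near that BrdU region was not tested. The lists are on hg19, so these bases were not placed on the regions.
ZIC2: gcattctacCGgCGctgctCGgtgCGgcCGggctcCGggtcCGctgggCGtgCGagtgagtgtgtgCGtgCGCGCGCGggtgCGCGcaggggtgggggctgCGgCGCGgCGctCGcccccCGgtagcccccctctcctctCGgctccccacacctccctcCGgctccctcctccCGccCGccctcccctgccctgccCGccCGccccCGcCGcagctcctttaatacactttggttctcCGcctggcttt
GATA6: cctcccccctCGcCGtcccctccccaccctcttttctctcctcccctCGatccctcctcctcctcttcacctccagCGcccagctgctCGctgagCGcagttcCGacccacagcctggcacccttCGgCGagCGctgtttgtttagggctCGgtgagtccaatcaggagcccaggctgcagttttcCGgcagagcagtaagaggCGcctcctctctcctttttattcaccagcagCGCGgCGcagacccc
OTX2: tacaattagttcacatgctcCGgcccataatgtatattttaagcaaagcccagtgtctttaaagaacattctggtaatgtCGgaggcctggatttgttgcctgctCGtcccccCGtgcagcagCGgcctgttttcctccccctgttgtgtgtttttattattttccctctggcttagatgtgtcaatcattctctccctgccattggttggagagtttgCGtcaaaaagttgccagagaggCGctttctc
EOMES: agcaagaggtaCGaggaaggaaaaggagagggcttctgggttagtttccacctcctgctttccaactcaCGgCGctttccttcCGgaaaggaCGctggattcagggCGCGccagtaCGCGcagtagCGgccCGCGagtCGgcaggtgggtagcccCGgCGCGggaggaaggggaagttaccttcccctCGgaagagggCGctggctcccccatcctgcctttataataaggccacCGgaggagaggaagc
ZIC2 had 31 CG in these 250 bases, which was more than in 89.1% of the 35116 starts in the RefSeq table, against 19 in EOMES, 16 in GATA6 and 7 in OTX2 and a median of 11 over all starts. The GC box GGGCGG, searched on both strands, occurred 4 times before ZIC2 and in none of the other 3 stretches, and 42.6% of all starts held it. RefSeq entries were found for 6 of the 10 genes (also PAX6 with 9 starts and T with 2), and were not found for FOXA2, GATA4, SOX17 and NKX2-5. Over the 16 starts of the 6 genes, the number of CG ran from 3 to 31. Of the 4 genes shown, ZIC2 (31 CG) and OTX2 (7) had H3K18ac regions in H1 alone, GATA6 (16) in both cell lines and EOMES (19) in neither. A relation between the number of CG and H3K18ac was not tested.

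H3K18ac was found at 8 of the 10 genes in H1 and at 3 of the 10 in IMR90. Over the whole genome, 46.1% of tiles of 50 kb held an H1 region and 36.8% an IMR90 region. The gene windows measured 43 to 96 kb, and longer tiles held a region more often. An H1 region lay in 42.5% of tiles of 43 kb and in 63.2% of tiles of 96 kb, and an IMR90 region in 34.3% and 49.9%. The windows of PAX6 (74 kb), GATA4 (96 kb) and GATA6 (73 kb) were the widest. PAX6, GATA4 and GATA6 had regions in both cell lines (3 of 10, against 23.3% of tiles), and OTX2, ZIC2, FOXA2, T and NKX2-5 in H1 alone (5 of 10, against 22.9% of tiles). No gene had them in IMR90 alone (13.6% of tiles), and SOX17 and EOMES had none in either list (40.3% of tiles). The tiles include stretches without genes, as no hg19 annotation was used, so they are not a background of genes.

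**Figure D1:**
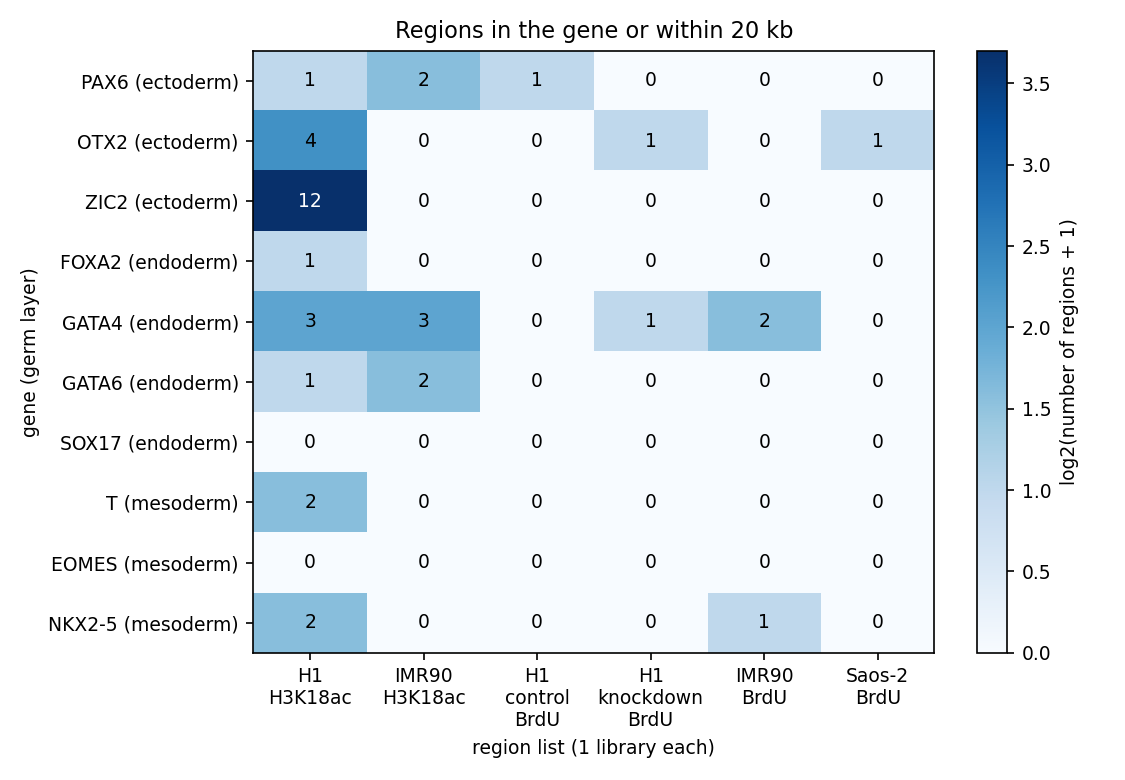
Number of regions in each gene or within 20 kb of it (rows) in each of the 6 lists (columns, 1 library each); the shade is log2 of the number plus 1. ZIC2 with 12 H3K18ac regions in H1 stands out, while most cells of the 4 BrdU columns are 0.

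The H1 regions were unevenly spread, with 12 of the 26 at ZIC2. Relative to the 565 kb examined, H1 H3K18ac regions numbered 46.0 per Mb, against 23.6 per Mb over the 2793.5 Mb of the genome that held regions (a ratio of 1.95). Without ZIC2 the density was 26.9 per Mb and the ratio 1.14, so the excess rested on that gene. IMR90 H3K18ac regions numbered 12.4 per Mb against 30.2 over the genome (a ratio of 0.410, and 0.445 without ZIC2). By covered length, H1 regions took up 1.17% of the windows (Wilson 95% interval 0.919 to 1.48, for counting error over windows of 100 bp that are not independent) and 0.563% of the genome. Without ZIC2 they took up 0.481%. IMR90 regions covered 0.372% (0.243 to 0.568) of the windows and 1.41% of the genome.

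Among the ectoderm genes, ZIC2 had the densest H3K18ac in H1. Its window on chromosome 13 (gene chr13:100634000-100639000 on hg19, ends rounded to 1 kb) held 12 H1 regions and none of any other list. They covered 4100 bp (9.11% of the window), and 219 of the 61938 tiles of the same length (0.354%) held as many regions or more. The regions ran over 28.7 kb with gaps of 300 to 7700 bp, 6 upstream of the gene, 2 in it and 4 downstream.

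The 3 ZIC2 regions of highest score lay around the start of the gene. The region at chr13:100631801-100632600 (800 bp, score 214) ended 1.40 kb before the rounded start, that at chr13:100633101-100633700 (600 bp, score 178) ended 0.300 kb before it, and that at chr13:100634801-100635500 (700 bp, score 135) lay in the gene. The score is the authors' own value per region, of unstated meaning, and was used only to rank regions within a list. These 3 regions had higher scores than 92.9%, 90.7% and 86.6% of the H1 list. The outermost regions scored lower, with 71 at chr13:100621501-100621700 and 83 at chr13:100649801-100650200, which lay 12.3 and 10.8 kb from the gene. ZIC5, a paralogue of ZIC2, neighbours it in RefSeq within 20 kb, and which of the upstream regions belong to it was not determined. The nearest IMR90 H3K18ac region was 103 kb from ZIC2, at chr13:100741601-100741700, a single window of 100 bp.

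OTX2 was second, with 4 H1 regions and none in IMR90. The strongest lay in the gene (chr14:57267000-57277000, reverse strand) at chr14:57271701-57272200, with 500 bp and a score of 214, equal to the highest at ZIC2. A second region in the gene, chr14:57273201-57273300, had a score of 25, and 2 further ones lay downstream at chr14:57261901-57262100 (score 56) and chr14:57261101-57261200 (score 18). Of the tiles of this length, 9.90% held 4 regions or more. RefSeq lists 2 starts for OTX2, 4812 bases apart on GRCh38.p14, and the centre of the strongest region lay 5.05 kb inside the rounded hg19 start. Whether it lies at the inner start was not tested. The nearest IMR90 H3K18ac region was 221 kb from the gene.

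PAX6, also a neural gene, had fewer H1 regions than ZIC2 and OTX2, and 56.3% of tiles of its window's length held at least 1. Its 1 H1 region, chr11:31845101-31845400 (300 bp, score 96, above 80.6% of the list), lay 5.10 kb upstream of the gene (chr11:31806000-31840000, reverse strand). In IMR90, 2 regions lay beyond its other end, at chr11:31801101-31801400 (score 63) and chr11:31800401-31800500 (score 12). Of tiles of the PAX6 window's length, 35.7% held 2 IMR90 regions or more. The nearest H1 and IMR90 regions were 43.7 kb apart, on opposite sides of PAX6. ELP4 overlaps PAX6 in RefSeq, so the IMR90 regions may lie in ELP4, and this was not tested. As a layer, the 3 ectoderm genes held 17 H1 regions over 3.14% of their windows and 2 IMR90 regions over 0.237%. ZIC2 alone gave 12 of the 17 H1 regions and 4100 of the 5300 bp covered in H1.

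**Figure D2:**
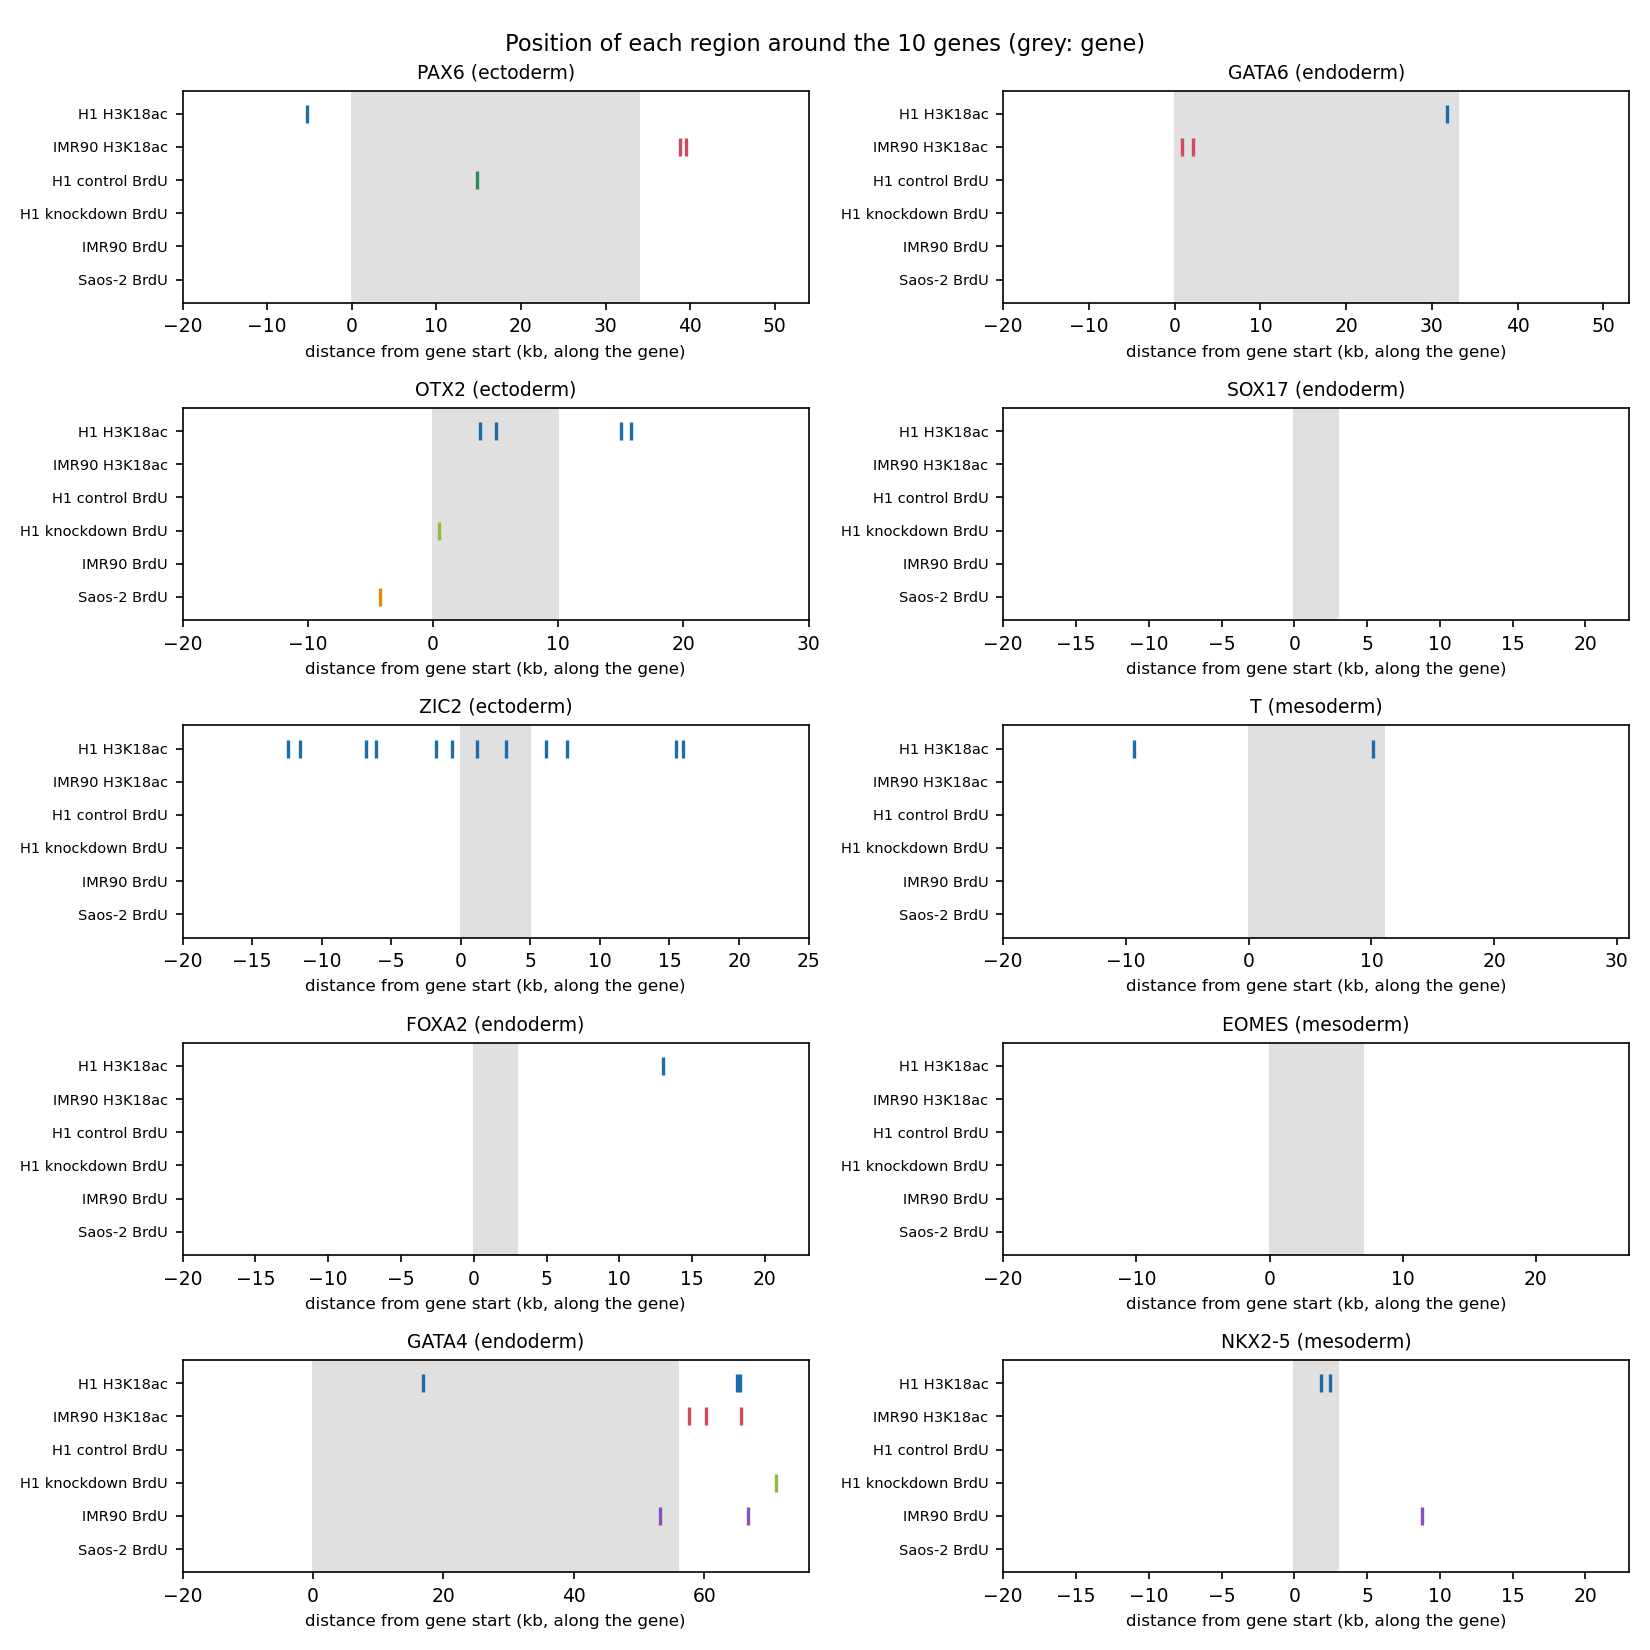
Position of every region relative to the start of the gene, in kb along the direction of transcription, 1 panel per gene and 1 lane per list; grey marks the gene, and ticks mark region centres at a fixed width, not region length. The 12 ZIC2 ticks fall on both sides of the gene, the 2 IMR90 ticks at GATA6 fall just inside its start, and the SOX17 and EOMES panels are empty.

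The endoderm genes encode the zinc finger factors GATA4 and GATA6, which also act in heart and gut, the forkhead pioneer factor FOXA2 and the HMG-box factor SOX17. Together they held 5 H1 H3K18ac regions over 0.353% of their windows and 5 IMR90 regions over 0.667%. GATA6 (chr18:19749000-19782000) carried the 2 IMR90 regions nearest to a gene start: chr18:19749601-19750100 (score 76) and chr18:19750901-19751400 (score 70), each of 500 bp and centred 0.851 and 2.15 kb inside the gene. In H1 its only region was a single window near the other end, chr18:19780701-19780800, with a score of 22, above 21.7% of its list. At GATA6, then, the mark was called at the start in the fibroblasts and only far from it in the stem cells. Of tiles of the GATA6 window's length, 35.4% held 2 IMR90 regions or more and 55.9% held at least 1 H1 region.

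GATA4 (chr8:11562000-11618000) had 3 H3K18ac regions in each cell line, and 28.5% (H1) and 33.6% (IMR90) of tiles of its window's length held as many. Here lay the only H3K18ac region of the 10 genes shared by both lines: chr8:11627301-11627600 in H1 (score 95, above 80.4% of its list) and chr8:11627401-11627800 in IMR90 (score 77, above 64.6%). It was 9.30 kb (H1) and 9.40 kb (IMR90) downstream of GATA4, and NEIL2, which encodes a DNA repair glycosylase, neighbours GATA4 in RefSeq within 20 kb. The shared region was therefore not assigned to GATA4. Within GATA4 itself H1 had 1 region, chr8:11578701-11578900 (score 53), and IMR90 none. The remaining IMR90 regions were chr8:11619501-11619700 (score 42) and chr8:11622201-11622300 (score 11), both downstream, and the remaining H1 region was chr8:11626901-11627000 (score 25).

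FOXA2 (chr20:22562000-22565000, reverse strand) had 1 H1 region, chr20:22551901-22552100, with a score of 49, 9.90 kb downstream of the gene, and none in IMR90. Of tiles of the FOXA2 window's length, 42.5% held at least 1 H1 region. RefSeq lists the long noncoding RNA gene LINC00261 within 20 kb of FOXA2. SOX17 (chr8:55370000-55373000) had no region in any list. Its nearest H1 H3K18ac region was 111 kb away at chr8:55483601-55483700 (score 28), and its nearest IMR90 region 303 kb away at chr8:55067101-55067300 (score 19). No H3K18ac region lay within 100 kb of SOX17 in either list.

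The mesoderm genes had 4 H3K18ac regions of low score in H1, at T and NKX2-5, and none in IMR90. This was 28.4 per Mb in H1, against 23.6 over the genome and 19.6 at the endoderm genes. T (brachyury, TBXT in RefSeq; chr6:166571000-166582000, reverse strand), the T-box factor of the primitive streak, had 2 single-window regions, chr6:166571801-166571900 in the gene (score 19) and chr6:166591301-166591400 upstream (score 25). NKX2-5, a homeodomain factor of the heart field, had 2 single windows in the gene, chr5:172659501-172659600 and chr5:172660101-172660200, both with a score of 18, above 5.61% of the list. As many regions were held by 25.7% of tiles of the T window's length and 22.3% of tiles of the NKX2-5 window's length. EOMES, a T-box factor of mesoderm and endoderm (chr3:27757000-27764000), had no region in any list, and its nearest H1 H3K18ac region lay 27.3 kb away at chr3:27729501-27729700 (score 40). The 4 regions of this layer, all single windows, covered 0.284% of its windows. By this measure the layer lay below the endoderm genes (0.353%) and the genome (0.563%).

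Within the H1 list, the members' regions had scores from 18 to 214 with a median of 51, against a median of 32 for all H1 regions, of which 7.05% scored above 214. Of the 26, 15 exceeded the median of their list. Without ZIC2 the order of the medians turned: the other 14 regions had a median of 25, and 6 of them exceeded the list's. Of all 26, 11 were single windows of 100 bp, which make up 53.7% of the list. The 7 IMR90 H3K18ac regions scored 11 to 77 with a median of 63, against 46 in the whole list, and the highest of them exceeded 64.6% of that list. Of the H1 regions 1 of 26 overlapped an IMR90 region, and of the IMR90 regions 1 of 7 overlapped an H1 region. Over the whole lists these shares were 19.0% and 14.5%. Regions centred within 2 kb of the rounded start were 4 in H1, namely 3 at ZIC2 and 1 weak window at NKX2-5, and 1 in IMR90, at GATA6.

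**Figure D3:**
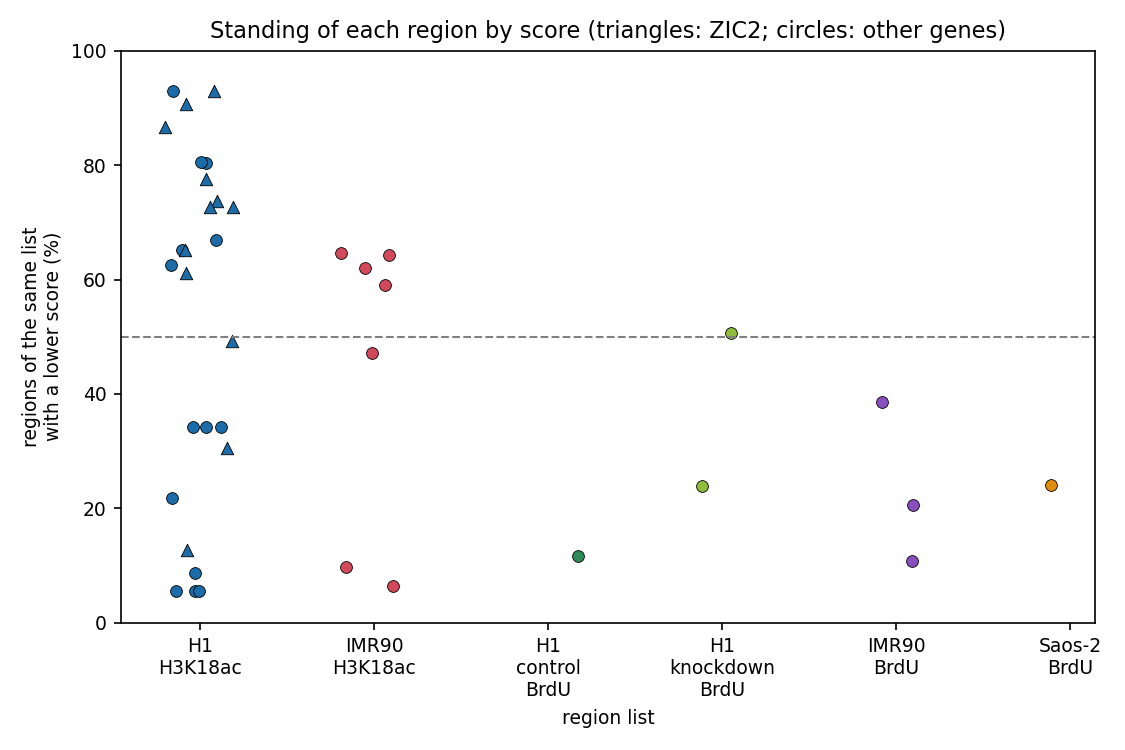
Share of regions in the same list with a lower score (percent, vertical axis) for each of the 40 regions, by list; triangles are ZIC2, circles the other genes, and points are spread sideways at random for legibility. The H1 H3K18ac points reach from 5.61% to 92.9%, while 6 of the 7 BrdU points lie below the dashed line at 50% and the other, at OTX2 in the knockdown, at 50.7%.

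BrdU regions at these genes were short and mostly of low score. The 7 regions of the 4 lists came to 12.4 per Mb of the windows, against 6.75 per Mb of the genome for the same lists together. Per list the windows held 1.77 per Mb in H1 control (genome 1.82), 3.54 in the knockdown (0.628), 5.31 in IMR90 (2.06) and 1.77 in Saos-2 (2.25), each resting on 1 to 3 regions. A region of any BrdU list was found at 4 of the 10 genes, PAX6, OTX2, GATA4 and NKX2-5, against 17.8% of 50 kb tiles. By list, H1 control had regions at 1 gene (7.57% of tiles), the H1 knockdown at 2 (2.96%), IMR90 at 2 (7.73%) and Saos-2 at 1 (8.34%). All 7 regions were single windows of 100 bp. Such windows make up 62.9% of the whole H1 control list, 85.8% of the knockdown list, 61.5% of IMR90 and 39.1% of Saos-2. OTX2 and GATA4 each had regions of 2 lists (2 of 10 genes, against 5.92% of tiles), yet at different positions: none of the 7 overlapped another BrdU list, compared with 32.9% of all BrdU regions. None overlapped H3K18ac of either line, compared with 11.3% of all BrdU regions. By list, overlap with another BrdU list ran from 15.4% (knockdown) to 38.2% (H1 control). Overlap with H3K18ac ran from 3.59% (knockdown) to 14.2% (Saos-2). These shares include longer regions, and 7 single windows are too few to read a difference from them.

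At PAX6 the H1 control list had a window in the gene, chr11:31825201-31825300, with a score of 27, above 11.6% of its list. The nearest knockdown region was 383 kb from it. The share of all H1 control regions that overlapped a knockdown region was not computed, and an effect of the siRNAs at PAX6 was not tested. At OTX2 the order was the other way round. The knockdown list had chr14:57276501-57276600 (score 37, above 50.7% of its list), centred 0.450 kb inside the rounded start, and the control list had nothing closer than chr14:57299201-57299300, 22.2 kb outside the gene and just beyond the 20 kb limit. Saos-2 had a window at chr14:57281201-57281300 (score 25) upstream of OTX2, 4.60 kb from the knockdown window. At none of the 10 genes did a control region overlap a knockdown region. Over the whole lists, 271 of the 1755 knockdown regions (15.4%) overlapped any other BrdU list, so overlap with H1 control was no more frequent than that. With 1 or 2 regions per list no difference between the cultures can be read from these counts.

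GATA4, with the widest window (96 kb), had 3 BrdU regions, 2 in IMR90 and 1 in the knockdown, or 31.2 per Mb, and OTX2 had 2 in 50 kb, or 40.0 per Mb. The IMR90 windows were chr8:11615101-11615200 in the gene (score 61, above 38.6% of its list) and chr8:11628701-11628800 downstream (score 39). The downstream window lay 0.901 kb from the shared H3K18ac region near NEIL2, the closest approach of the 2 assays at any of the 10 genes. The knockdown window was chr8:11632901-11633000 (score 28), 4.10 kb further on. NKX2-5 (chr5:172659000-172662000, reverse strand) had 1 IMR90 window downstream, chr5:172653201-172653300, with a score of 31.

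Strong BrdU loci lay further off. The nearest to SOX17 was found in H1 control, IMR90 and Saos-2 about 179 kb away, at chr8:55190801-55191300 in H1 control (score 1208), chr8:55190901-55191400 in IMR90 (score 1203) and chr8:55190901-55191200 in Saos-2 (score 138). For T, the nearest region of H1 control (chr6:166501301-166501500, score 412) and of Saos-2 (chr6:166501301-166501600, score 209) coincided 69.5 and 69.4 kb from the gene. The knockdown list lacked the locus near SOX17, and its nearest region was 700.3 kb from the gene, at chr8:54669601-54669700 (score 29). That list is shorter throughout, with 1755 regions against 5086 in H1 control. Of its regions 15.4% overlapped another BrdU list, against 38.2% in H1 control. Both shares pool all other BrdU lists, so neither gives how often an H1 control region had a counterpart in the knockdown. An effect of the siRNAs on this locus was not tested. From EOMES the nearest BrdU region was 177 kb away in H1 control (score 22), 233 kb in Saos-2 (score 12), 3219 kb in IMR90 and 3800 kb in the knockdown.

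The contrast between H1 and IMR90 H3K18ac was found close to the genes. Within 100 kb, H1 had 70 regions (32.3 per Mb, 1.37 times its genome density, and 1.08 times without ZIC2) and IMR90 had 32 (14.8 per Mb, 0.489 times). Within 500 kb, H1 had 260 (1.08 times) and IMR90 371 (1.21 times), of which 127 lay around NKX2-5. Without NKX2-5 the IMR90 ratio at 500 kb was 0.881. Around ZIC2, H1 and IMR90 had 20 and 0 regions within 100 kb and 47 and 31 within 500 kb. OTX2 had 8 and 0, then 16 and 17, and T had 8 and 0, then 48 and 40. EOMES went the other way, with 2 in H1 and 8 in IMR90 within 100 kb and 10 and 34 within 500 kb. GATA6 likewise had 17 in H1 and 58 in IMR90 within 500 kb.

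**Figure D4:**
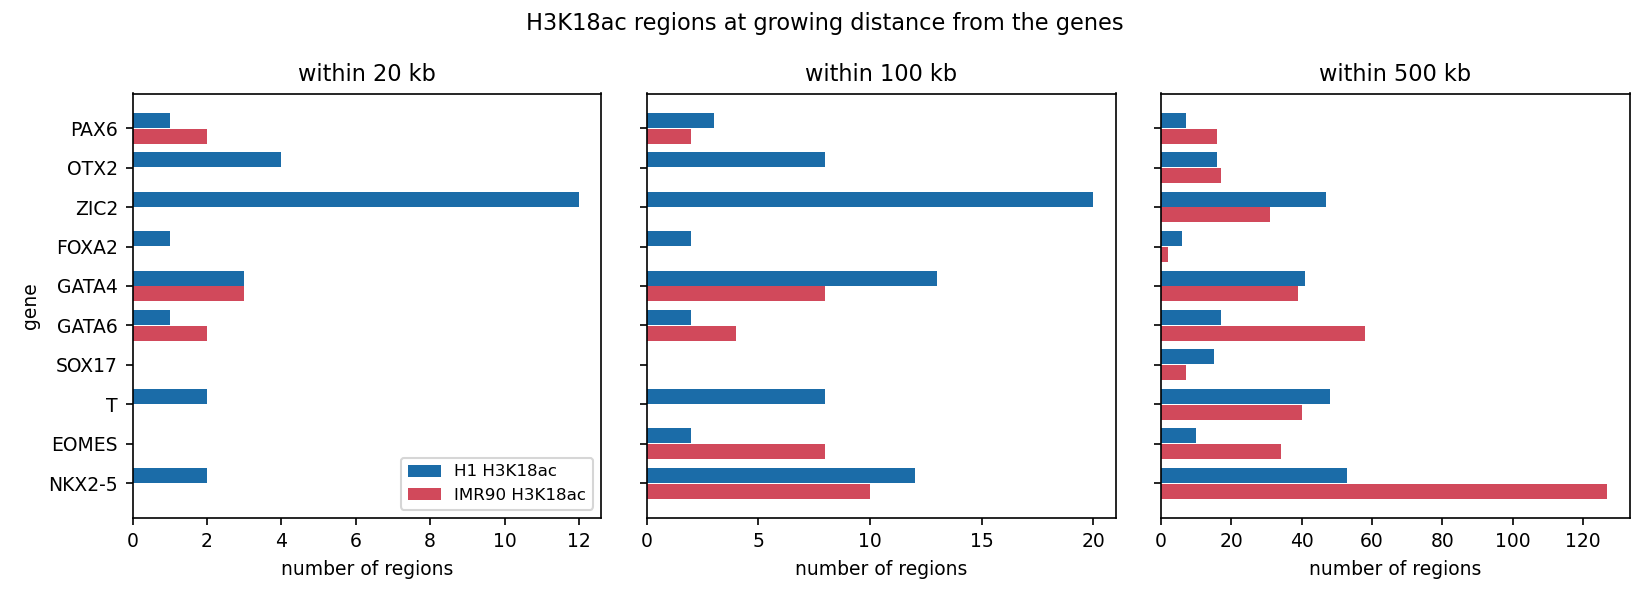
Number of H3K18ac regions (horizontal axis) in H1 and IMR90 within 20, 100 and 500 kb of each gene (vertical axis); the 3 panels have different horizontal scales. IMR90 bars are missing at OTX2, ZIC2, FOXA2, SOX17 and T up to 100 kb and present at 500 kb, where NKX2-5 has 127.

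The 20 kb limit fell in a gap of the data. The farthest region inside it lay 14.9 kb from its gene (the knockdown window near GATA4, score 28), and the nearest outside were the H1 control window at 22.2 kb from OTX2 (score 42), an H1 H3K18ac region 23.6 kb from FOXA2 (score 65) and 2 more at 24.2 and 25.0 kb from ZIC2 (scores 94 and 234). The last, chr13:100608001-100609000, scored above every region inside the ZIC2 window.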

How the data were processed

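The authors deposited 6 lists of regions on hg19, 1 per pulled-down library; Bowtie 0.12.7 is named in the submitters' processing notes. How regions were called, at which threshold, and whether duplicates or inputs entered is not given in the sources used here. Regions lie on a grid of 100 bp windows, and the last column of the deposited lists is a whole-number score of unstated meaning. Depth is unknown. The 10 genes and the lists were chosen with earlier results of these data known. Gene ends on hg19 are rounded to 1 kb. The strands of FOXA2, GATA4, SOX17 and NKX2-5 are from general knowledge and the others from RefSeq. All 10 genes were named, with the highest-scoring region of each list at each gene and every BrdU region; further regions were added after their values were seen. A region counted when at least 1 bp fell in a window. Tiles of 50 kb in the 5587 bins of 500 kb that held any region gave the background. Other germ layer genes were not counted, for want of hg19 positions. The scripts ran on Python 3.11.15 (pandas 2.3.3, numpy 2.4.6, scipy 1.17.1, matplotlib 3.10.9) and were tested on simulated lists. Alternatives changed the distance, the regions kept and their placement.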

Additional observations from a re-analysis of the deposited data

How the results depend on the processing

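A distance 1 kb shorter or longer and leaving out ZIC2 were alternatives added after seeing the data. The numbers of genes with a region, and the covered percent with all 10 genes, stayed within 1.5 times or within their interval with the distance 1 kb shorter or longer and when the midpoint had to lie in the window. H1 H3K18ac was found at 5 genes in the upper 50% by score and at 5 among regions of at least 200 bp, in place of 8; T, NKX2-5 and GATA6 dropped out in both, by construction, as their regions were single windows of low score. Its covered percent went from 1.17 to 1.51 at 5 kb, 0.893 at 50 kb and 0.481 without ZIC2, and that of IMR90 from 0.372 to 0.604 at 5 kb. IMR90 H3K18ac stayed at 3 genes under all 7 alternatives tried for it. At 50 kb, H1 control BrdU was found at 4 genes and Saos-2 BrdU at 2. At 5 kb, the knockdown and IMR90 BrdU lists had 1 gene each. In the upper 50% by score, 1 gene was left in the knockdown and 0 in H1 control, IMR90 and Saos-2 BrdU; among regions of at least 200 bp, 0 were left in each of the 4 BrdU lists. No paired analysis was possible because each group had 1 library. Depth being unknown, a missing region cannot be told from one under the authors' threshold.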
